A study of Rattus norvegicus and Mus musculus with 56 samples.

Results

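The dorsal horn on the side opposite to the operation was compared between mice with spared nerve injury (SNI) and mice with sham surgery. Its libraries were chosen by their labels alone, as the mouse libraries of the contralateral side, and number 12 of the 24 mouse libraries and of the 56 libraries of mice and rats in the study. There were 6 SNI and 6 sham libraries, each with 3 females and 3 males, from wild-type C57BL/6 animals, and both groups were sampled on postoperative day 7. The tissue was lumbar dorsal horn of spinal levels L4 and L5, poly(A) RNA was sequenced, and the sources used here give neither the age of the mice, nor the number of animals per library, nor whether libraries of both sides came from the same mice. The p-values therefore measure the spread between these libraries.

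In SNI, branches of the sciatic nerve are tied and cut while the sural branch is spared, so the lumbar dorsal horn on the operated side loses part of its normal input from the hind paw. Microglia, the resident macrophages of the spinal cord, respond in that dorsal horn by expressing more of their surface receptors, complement and lysosomal proteases. The opposite dorsal horn receives its own, uncut nerve, but it is joined to the operated side by commissural neurons and shares the same blood and cerebrospinal fluid. It serves both as a tissue control in nerve injury studies and as a place where responses that cross the midline or reach the whole animal could be read. The question here was which transcripts differed between SNI and sham surgery on that uncut side, and how far they differed from the response on the cut side.

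Each library held between 28642947 (sham replicate 4) and 39516266 (SNI replicate 4) read counts on genes. Levels are given below as CPM, a gene's read count scaled to a fixed library total, where the total is the counts on genes adjusted by TMM factors (trimmed mean of M values). Gene differences are log2 fold changes of SNI over sham with sex as a covariate, from limma on log2 CPM, and a gene is called at an adjusted p under 0.05 (Benjamini-Hochberg over all genes tested). Markers of dorsal horn excitatory neurons were present in all 12 libraries, at a summed level of 785 to 1081 CPM over 18 genes. Markers of motor neurons, which lie in the ventral horn, were present too, at 415 to 1057 CPM over 14 genes.

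Several libraries of both groups stood apart from the others. Among sham libraries, the lowest motor neuron mean lay at -1.13 log2 units from the sham mean. Sham replicate 1 had the lowest share of counted entries on genes, 71.4%. SNI replicate 1, a male, had interferon-response genes on average 1.19 log2 units above the sham mean, where the other 5 SNI libraries lay between -0.41 and 0.25. SNI replicate 5, a male, had neutrophil genes 4.12 log2 units above the sham mean, and its blood, cell cycle, and border macrophage and monocyte genes lay 1.34, 1.09 and 1.23 log2 units above it. In SNI replicates 3 and 6, both female, motor neuron genes lay 0.98 and 0.99 log2 units above the sham mean and excitatory dorsal horn genes lay 0.39 and 0.33 below it (list differences of -0.39 and -0.33). The 4 libraries with title numbers 49 to 56 (SNI replicates 4, 5 and 6 and sham replicate 6) had 75.4 to 76.1% of their counted entries on genes, against 71.4 to 74.5% in the other 8. Within titles 33 to 48, which hold 3 SNI and 5 sham libraries, 0 genes were called, and titles 49 to 56 hold a single sham library, too few for a value of their own. For the lists these libraries move most, values with and without them are given beside each list. The pair of SNI replicates 1 and 5 and the pair of replicates 3 and 6 were each left out together as alternatives chosen after seeing the data, and 0 genes were called without either pair.

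**Figure D1:**
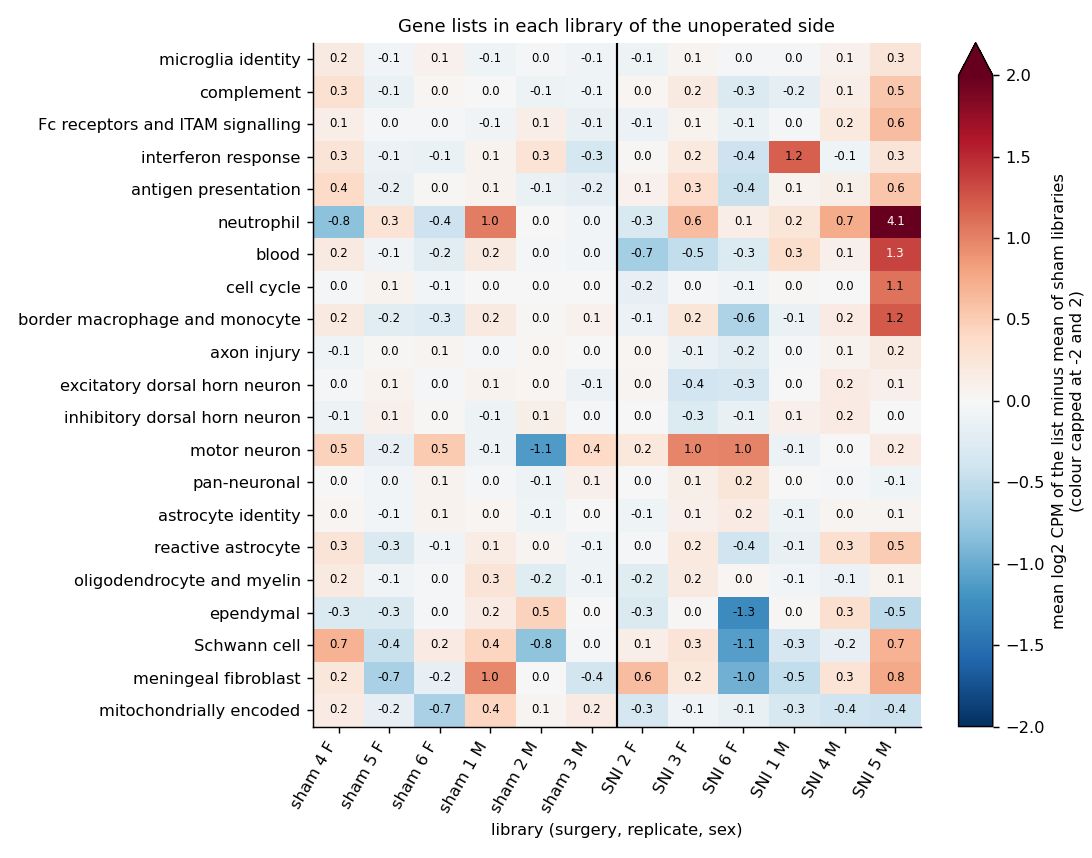
Mean log2 CPM of 21 gene lists in each contralateral library, as the difference from the mean of the 6 sham libraries. Columns are libraries ordered by surgery and sex, each cell prints its value, and the colour is capped at -2 and 2. Neutrophil genes stand at 4.1 in SNI replicate 5, interferon-response genes at 1.2 in SNI replicate 1 and motor neuron genes at 1.0 in SNI replicates 3 and 6, while most other cells lie near 0.

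Across the genome, no transcript of the contralateral dorsal horn separated SNI from sham animals after adjustment. Of 17580 genes tested, 0 were called (0%), and the smallest adjusted p was 0.999998 by limma trend and 0.999988 by limma voom. At an unadjusted p under 0.05 there were 336 genes, 1.91% of those tested, and voom gave 366. Of the 336, 170 were higher and 166 lower after SNI. That share is below what an even spread of p would give, and it does not by itself show that effects are absent. It ranged from 1.32% (without sham replicate 5) to 4.34% (without sham replicate 6) when single libraries were left out. The median log2 fold change was 0.01 and the median size of a change, regardless of sign, was 0.05. A log2 fold change beyond 1 in either direction was estimated for 21 genes, against 158 on the operated side.

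The spread between libraries sets how much these zeros can say. The 95% confidence interval of a gene had a median half-width of 0.16 log2 units, and the whole interval lay within a log2 fold change of 1 in either direction for 16814 genes, 95.6% of those tested. On the operated side, with the same number of libraries and the same test, 280 of 17602 genes (1.59%) rose after SNI and 15 (0.0852%) fell, and 11.5% had an unadjusted p under 0.05.

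**Figure D2:**
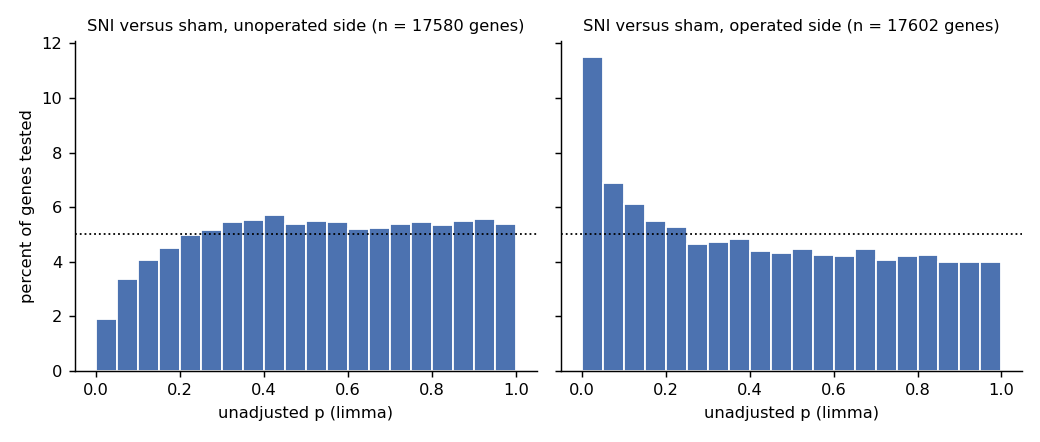
Share of genes (percent, vertical axis) in each interval of the unadjusted p (horizontal axis) for SNI against sham, in 17580 genes on the unoperated side and 17602 on the operated side. The dotted line marks an even spread. The first bar, p under 0.05, holds 1.91% of genes on the unoperated side and 11.5% on the operated side.

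The smallest p on the contralateral side belonged to Alox15, a lipoxygenase that oxygenates arachidonic acid in macrophages and eosinophils (GRCm38, chromosome 11, 70344152 to 70352031, minus strand). Its level was 0, 0.0701, 0.0875, 0.0905, 0.127 and 0.178 CPM in the sham libraries and 0.202, 0.324, 0.334, 0.53, 0.66 and 0.739 CPM in the SNI libraries. The groups did not overlap, but the counts behind them were few, 0 to 6 reads per sham library and 6 to 25 per SNI library. The log2 fold change was 1.79 (SE 0.336, n = 6 and 6; limma, unadjusted p = 7.13e-05, adjusted p = 0.999998), with 2.03 in females and 1.55 in males. On the operated side the groups overlapped, and the log2 fold change was 0.59 (limma, adjusted p = 0.637). Groups without overlap were rare in both directions: all 6 SNI libraries lay above all 6 sham libraries for 5 genes (0.0284%) and below them for 3 (0.0171%). The other 4 genes above were Draxin, A330033J07Rik, Gpr107 and Cblb, and the 3 below were Wfdc3, Chchd2-ps and Eps8l1.

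Among the 12 genes with the smallest p in the higher direction, none of them called, 2 belong to immune signalling. Il4ra, the alpha chain of the interleukin-4 and interleukin-13 receptor, ranged from 6.68 to 8.92 CPM in sham libraries (median 7.17) and from 8.55 to 10.5 CPM in SNI libraries (median 8.88). The overlap came from sham replicate 6 at 8.92 CPM. Its log2 fold change was 0.31 (SE 0.0824; limma, unadjusted p = 0.00191, adjusted p = 0.999998), and it rose by 0.72 on the operated side (limma, adjusted p = 0.000358). H2-D1, a classical MHC class I heavy chain, ranged from 62.3 to 75.8 CPM in sham and from 71.9 to 85.1 CPM in SNI libraries, with a log2 fold change of 0.14 (SE 0.0464) against 0.21 on the operated side (limma, adjusted p = 0.144).

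The remaining genes of these 12 have varied known roles. Cdhr1, a photoreceptor cadherin, had a log2 fold change of 0.39 and Myo15, an unconventional myosin of hair cells, 0.55. Pemt, which methylates phosphatidylethanolamine to phosphatidylcholine, stood at 0.40, Cops7b, a subunit of the COP9 signalosome, at 0.17, and Grid2ip, which binds the delta-2 glutamate receptor, at 0.22. Slc23a4, A530076I17Rik and 2700081O15Rik stood at 0.70, 0.79 and 0.14. Draxin, a secreted guidance protein of commissural axons, measured 1.23 to 1.78 CPM in sham and 1.82 to 2.05 CPM in SNI libraries, a log2 fold change of 0.36 (SE 0.122; limma, unadjusted p = 0.00904).

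In the lower direction the 2 genes with the smallest p lie at the ends of the sex chromosomes, where X and Y share a pseudoautosomal region. Mid1, a microtubule-binding ubiquitin ligase whose mouse gene spans the boundary of that region (chromosome X, 169685199 to 170005736, plus strand), ranged from 6.10 to 12.7 CPM in sham libraries (median 8.07) and from 4.49 to 8.68 CPM in SNI libraries (median 4.68). Of the SNI libraries, 5 lay below all sham libraries, and replicate 4 at 8.68 CPM lay among them. Its log2 fold change was -0.63 (SE 0.149; limma, unadjusted p = 0.000809, adjusted p = 0.999998), -0.61 in females and -0.64 in males. Gm47283, annotated on chromosome Y from 90784738 to 90816464, nonetheless had at least 69 reads in each female library.

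Gm47283 measured 6.03 to 22.1 CPM in sham libraries (median 10.04) and 2.33 to 7.96 CPM in SNI libraries (median 5.09), with a log2 fold change of -1.10 (SE 0.26; limma, unadjusted p = 0.00147). Mid1 and Gm47283 had their highest sham value in the same library, replicate 2, and their highest SNI value in the same library, replicate 4. Reads of near-identical copies can be split between genes in this region, so both levels are uncertain in that respect. On the operated side their log2 fold changes were -0.43 and -0.69, with adjusted p of 0.499 and 0.537 by limma.

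The other 10 genes in the lower direction were mostly scarce or of unknown role. Wfdc3, a whey-acidic-protein domain gene, measured 0.666 to 1.15 CPM in sham and 0.33 to 0.642 CPM in SNI libraries (log2 fold change -0.69), and its groups did not overlap. Chchd2-ps, a processed pseudogene, measured 0.374 to 0.736 CPM in sham and 0.112 to 0.359 CPM in SNI libraries (log2 fold change -0.86). Apoh, the plasma protein beta-2-glycoprotein I, stood at -0.46 and Zfp709, a zinc finger gene, at -0.23. Bcas1os1, Gm26716, BC065403, Gm17075, 4933428G20Rik and ENSMUSG00000079716, for which no role is given here, stood between -1.07 and -0.73. For 4 of them the exons overlap another gene on the opposite strand (Bcas1os1 with Bcas1, Gm26716 with Sdc3 over 100% of its exon bases, BC065403 with Zfp280d, and 4933428G20Rik with Arhgap23), and whether the counting used strand is not given in the sources used here.

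**Figure D3:**
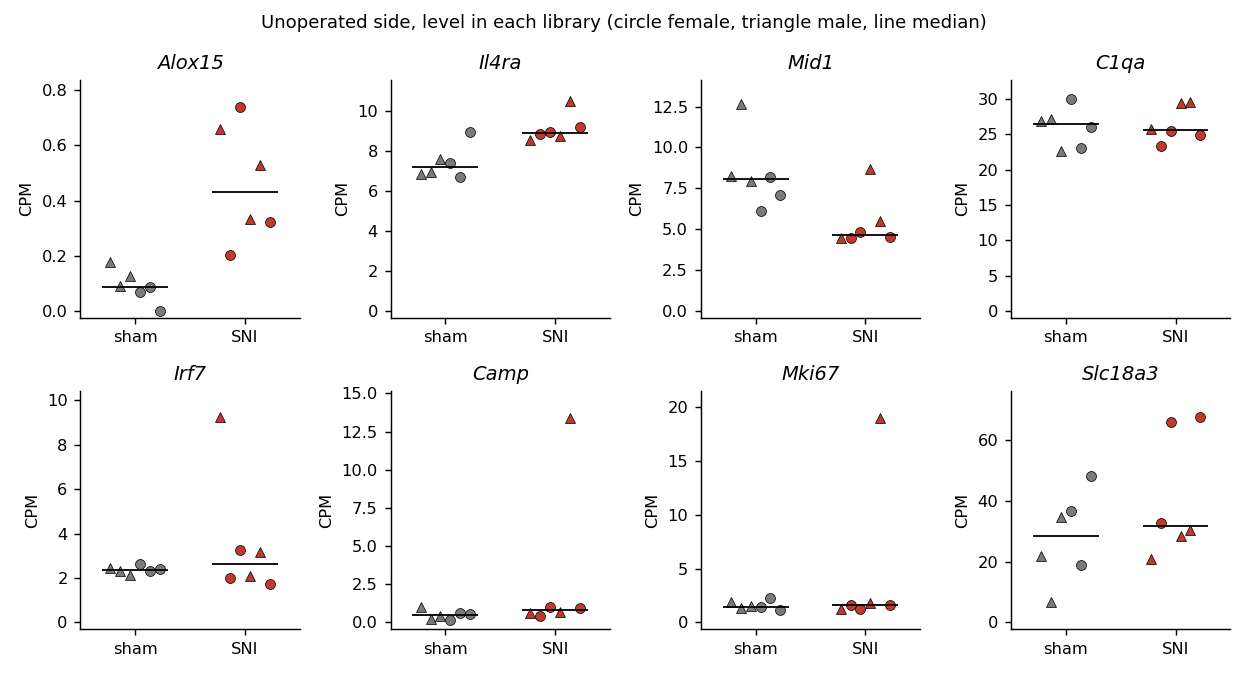
Level (CPM, vertical axis, linear scale) of 8 genes in the 6 sham and 6 SNI libraries of the unoperated side, circles for females, triangles for males and a line at the median. Alox15 does not overlap between groups, C1qa overlaps fully, Irf7 is high in SNI replicate 1 (9.27 CPM), Camp and Mki67 are high in SNI replicate 5 (13.4 and 19.03 CPM), and Slc18a3 is high in SNI replicates 3 and 6 (65.9 and 67.5 CPM).

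Microglial genes, which carry the response on the operated side, did not separate the groups on the contralateral side. C1qa, the A chain of complement C1q, ranged from 22.6 to 29.9 CPM in sham libraries (median 26.5) and from 23.3 to 29.5 CPM in SNI libraries (median 25.6). Its log2 fold change was 0.03, with a 95% confidence interval of -0.13 to 0.18, where the operated side gave 1.17 (limma, adjusted p = 1.91e-06). Csf1r, the receptor that microglia need to survive, measured 66.7 to 80.4 CPM in sham and 66.2 to 92.6 CPM in SNI libraries, a log2 fold change of 0.11 (interval -0.05 to 0.26). Tmem119, a surface protein of resident microglia, measured 11.6 to 15.2 CPM in sham and 11.9 to 15.8 CPM in SNI libraries, a log2 fold change of 0.01 (interval -0.16 to 0.19). All SNI libraries lay within the sham range for C1qa. SNI replicate 5 lay above every sham library for Tmem119, and SNI replicates 4 and 5 did so for Csf1r (83.1 and 92.6 CPM), whose log2 fold change was 0.05 without replicate 5.

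Over the 20 microglia identity genes, 0 were called on the contralateral side and the median log2 fold change was 0.03 (-0.00867 without SNI replicate 5), against 0.01 over all genes. Values ran from -0.13 for Aif1, the calcium-binding protein Iba1, to 0.16 for Siglech, a sialic acid-binding lectin. On the operated side 18 of the 20 rose, with a median of 1.05. Summed levels were 1612 to 1915 CPM in sham and 1687 to 1981 CPM in SNI libraries. In bulk tissue, fewer cells of a type and less RNA per cell cannot be told apart.

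Of the 20 genes called on the operated side with the smallest p, 18 are described here on the contralateral side. Their contralateral log2 fold changes ran from -0.06 for Pld4, an endolysosomal exonuclease, to 0.23 for Irf8, a transcription factor of the microglial lineage, with 15 of 18 above 0 and 0 called. The highest upper bound of a 95% confidence interval among the 18 on the contralateral side was 0.50, below the lowest lower bound on the operated side, 0.75. The operated-side values were the ones that chose these genes. Ctss, the protease cathepsin S that sheds fractalkine, stood at 0.01 (interval -0.12 to 0.14) against 1.31. Lag3, an inhibitory receptor, stood at 0.02 (interval -0.20 to 0.24) against 1.67, and Itgam, the CD11b integrin chain, at 0.09 (interval -0.13 to 0.31) against 1.42. For Itgam, 68.7% of the exon bases are shared with the gene Gm49368 on the same strand, so its counts are uncertain.

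**Figure D4:**
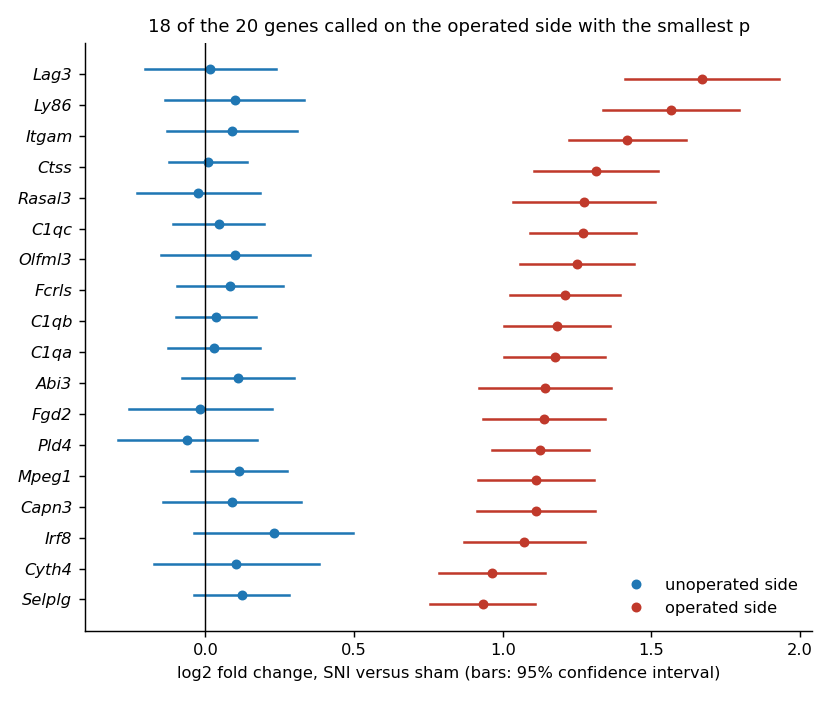
Log2 fold change of SNI over sham (horizontal axis) with 95% confidence intervals for 18 of the 20 genes called on the operated side with the smallest p, blue for the unoperated and red for the operated side. The operated-side values were the ones that chose these genes. Unoperated-side points lie between -0.06 and 0.23, and none of their intervals reaches the lowest operated-side bound of 0.75.

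Of the 280 genes that rose on the operated side, 263 had enough reads to be tested on the contralateral side. None of the 263 was called there, 10 had an unadjusted p under 0.05, and the contralateral log2 fold changes ran from -0.52 to 0.52 with a median of 0.06, against an operated-side median of 0.78. The contralateral 95% interval lay wholly away from the operated-side estimate for 255 of the 263, and away from 0.5 times that estimate for 152. These estimates chose the genes, were taken without their own error and, having passed a threshold, tend to be too large. Both counts are therefore only descriptive. The 17 genes with too few contralateral reads included the chemokines Ccl2 and Ccl7, the protease inhibitor Cst7 and the serotonin transporter Slc6a4. Ccl2 had 3 to 13 reads per sham library and 1 to 7 per SNI library. All 15 genes that fell on the operated side were tested, and their contralateral values ran from -0.06 to 0.04. Every interval lay away from the operated-side estimate, which had chosen these genes too.

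A lean of those 263 genes toward SNI depended on which libraries were kept. Of the 263, 198 (75.3%) had a contralateral log2 fold change above 0, against 53.7% of all genes tested. Their mean level, relative to the sham mean, was -0.16, -0.02, 0.03, 0.05, 0.14 and 0.39 log2 units in SNI replicates 6, 2, 1, 3, 4 and 5, and -0.07 to 0.08 in the sham libraries. SNI replicates 4 and 5 lay above all sham libraries and replicate 6 lay below them. Without SNI replicate 5, 53.2% were above 0, against 53.1% of all genes, and the median was 0.01. Within titles 33 to 48, 51.9% were above 0, against 47.4% of all genes. The share was higher without SNI replicate 6 (82.9%, against 49.7% of all genes) and without sham replicate 4 (81.4%, against 53.9%). Without SNI replicates 3 and 6 together it was 80.2%, against 49.9%. When single libraries were left out, it ranged over 53.2 to 82.9%. SNI replicate 5 was also the one with high neutrophil, blood and cell cycle genes, and the part these play in its level was not tested.

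**Figure D5:**
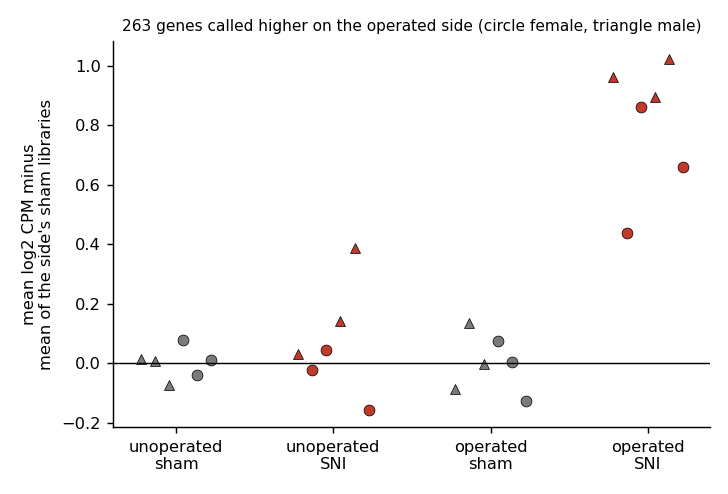
Mean log2 CPM of the 263 genes called higher on the operated side and tested on both sides, minus the mean of that side's 6 sham libraries (vertical axis), one point per library, circles for females and triangles for males. Unoperated SNI libraries lie between -0.16 and 0.39 and operated SNI libraries between 0.44 and 1.02. The operated-side values chose these genes.

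The difference between the sides was tested directly, as contralateral minus ipsilateral log2 fold change in a fit of all 24 mouse libraries. Of 18058 genes tested, the contralateral effect was lower for 113 (0.626%) and higher for 1. The differences with the smallest p were those of C1qb (-1.15), C1qc (-1.23), C1qa (-1.15), Ctss (-1.31), Rasal3 (-1.30), a GTPase-activating protein of leukocytes, and Lag3 (-1.66), each with an adjusted p of 2.39e-06 by limma. Of the 263 genes, 100 were called in this test, and 18 of the 20 microglia identity genes. Operated-side values chose the 263 and also enter this test, so these 100 calls are no independent evidence that the sides differ.

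Immune pathways beyond microglial identity stayed within the same narrow range. In the Fc receptor and ITAM signalling list (19 genes tested) the median was 0.09 and the lowest value was -0.12, for Fcer1g, the shared gamma chain. The complement list (15 tested) had a median of 0.03, from -0.16 for the C3a receptor C3ar1 to 0.47 for the C5a receptor C5ar1. The chemokine list (10 tested) had a median of 0.05, from -0.43 for the interferon-induced Cxcl10 to 0.57 for Ccr2, the receptor of blood monocytes. Ccr2 measured 3.46 CPM in SNI replicate 5 and 0.616 to 1.33 CPM in the other 5 SNI libraries, against 0.603 to 1.12 CPM in sham. Without that library Ccr2 stood at 0.30 and C5ar1 at 0.29, and the medians of the 3 lists were -0.00837, -0.0184 and -0.005003. None of the members of these 3 lists was called on the contralateral side, and 17, 6 and 5 of them rose on the operated side.

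Genes tied to microglial signalling in pain (14 tested) had a median of 0.03 and ran from -0.11 for the cytokine Il18 to 0.23 for Irf8. The activated phagocyte list (18 tested) had a median of 0.08, from -0.14 for Cd63, a lysosomal tetraspanin, to 0.37 for Itgax, the CD11c chain, and the median was 0.02 without SNI replicate 5. Trem2, the lipid-sensing receptor of microglia, measured 6.13 to 7.61 CPM in sham and 6.65 to 8.32 CPM in SNI libraries, a log2 fold change of 0.10 (interval -0.07 to 0.28) against 1.17 on the operated side.

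Interferon-response genes leaned toward SNI in 1 library. Of 27 tested, 26 had a log2 fold change above 0, the median was 0.17 and 0 were called. Irf7, the factor that amplifies type I interferon production, measured 2.13 to 2.63 CPM in the sham libraries, 1.75 to 3.28 CPM in 5 SNI libraries and 9.27 CPM in SNI replicate 1. Usp18, a brake on interferon receptor signalling, measured 6.80 CPM in that replicate, 0.941 to 1.71 CPM in the other 5 and 0.525 to 2.44 CPM in sham. Without SNI replicate 1 the list's median was -0.00132, and without SNI replicates 1 and 5 together, it was -0.06. It was higher without SNI replicate 6 (0.32), without SNI replicates 3 and 6 (0.32), without SNI replicate 4 (0.26), with a term for titles 49 to 56 (0.32), with the motor neuron level added (0.28) and within titles 33 to 48 (0.49), all of which keep replicate 1. Without sham replicate 3 it was 0.06. Isg15, a ubiquitin-like interferon product, followed the same order, at 6.24 CPM in replicate 1 and 1.49 to 3.61 CPM in the others.

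Antigen presentation genes (15 tested) had a median of 0.14, from -0.04 for the MHC class II chain H2-Aa to 0.28 for the nonclassical class I gene H2-Q7. Of the 15, 13 were above 0 and 0 were called. Their mean level lay 0.56 above the sham mean in SNI replicate 5 and 0.44 below it in replicate 6 (a difference of -0.44), and without replicates 1 and 5 the list's median was -0.000416. Without replicate 1 alone it was 0.15, without replicate 5 alone 0.08 and without replicate 6 alone 0.25. Leaving out sham replicates 3, 2 or 4 gave 0.09, 0.09 and 0.21.

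Neutrophil genes, Slc4a1 and Mki67 set SNI replicate 5 apart, whereas the globin gene Hba-a2 did not. Camp, the cathelicidin of neutrophil granules, measured 13.4 CPM there, 0.405 to 1.01 CPM in the other 5 SNI libraries and 0.175 to 1.01 CPM in sham. Slc4a1, the anion exchanger of red cells, measured 29.97 CPM there, 0.438 to 1.02 CPM in the others and 0.573 to 0.922 CPM in sham, and Mki67, a marker of dividing cells, 19.03, 1.25 to 1.80 and 1.12 to 2.25 CPM. Over the whole neutrophil list (10 of 10 genes tested) the summed level was 10.5 to 28.7 CPM in sham libraries, 13.5 to 36.3 CPM in 5 SNI libraries and 270 CPM in replicate 5. The list's median log2 fold change was 0.99 with 0 called, and 0.37 without replicate 5. Hba-a2, a red-cell globin, measured 5.06 to 12.8 CPM in SNI and 6.43 to 13.6 CPM in sham libraries, and the blood list's median was -0.04 (-0.16 without replicate 5, and 0.08 without sham replicate 4). On the operated side, sham replicate 4 also had many reads of Camp (347), Mki67 (319) and Slc4a1 (277). Contralateral SNI replicate 5 had 479, 682 and 1074. Which cells these reads came from was not tested.

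Axon injury genes, which injured sensory and motor neurons express, were not higher as a set on the contralateral side. Of 19 tested, 5 were above 0, the median was -0.03 and 0 were called, whereas 7 rose on the operated side. Contralateral values ran from -0.38 for Sprr1a to 0.38 for Anxa1. An unadjusted p under 0.05 by limma was found for 1 of the 19, in the higher direction. Atf3, the transcription factor that marks axotomised neurons, measured 0.889 to 1.404 CPM in sham and 0.714 to 1.21 CPM in SNI libraries, a log2 fold change of -0.01 (interval -0.37 to 0.35). On the operated side it rose by 4.09 (limma, adjusted p = 0.0441), but not in every library. Operated-side SNI replicate 2, a female, had 40 Atf3 reads, against 32 to 50 in operated-side sham libraries. The other operated-side SNI libraries had 452 to 2447. Sprr1a, a regeneration-associated envelope protein, had 28 reads over the 6 contralateral SNI and 49 over the 6 contralateral sham libraries, and its interval ran from -1.42 to 0.66. On the operated side, SNI replicate 2 had 9 Sprr1a reads, against 2 to 20 in sham libraries and 606 to 2501 in the other SNI libraries. Gpr151, an orphan receptor of injured sensory neurons, measured 0.292 to 0.573 CPM in sham and 0.355 to 0.825 CPM in SNI libraries, a log2 fold change of 0.33 (interval -0.10 to 0.77) against 2.48 on the operated side.

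The neuropeptides linked to nerve injury overlapped between groups. Gal, which encodes galanin, measured 4.88 to 9.20 CPM in sham and 3.57 to 7.54 CPM in SNI libraries, a log2 fold change of -0.17 (interval -0.52 to 0.19) against 1.25 on the operated side. Npy, neuropeptide Y, measured 10.4 to 13.9 CPM in sham and 8.46 to 12.8 CPM in SNI libraries, a log2 fold change of -0.10 (interval -0.34 to 0.14). For both genes the lowest values belonged to SNI replicates 3 and 6, and without them the log2 fold changes were 0.05 for Gal and 0.10 for Npy.

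Transmitter and excitability genes lay close to 0 throughout. The medians were -0.01 for 22 glutamate receptor genes, 0.01 for 21 genes of GABA and glycine signalling, 0.02 for 30 voltage-gated channel genes and -0.02 for 8 opioid peptide and receptor genes, with 0 called in each list. The extremes were small: Grm4, a presynaptic metabotropic receptor, stood at 0.12 and Grik1, a kainate receptor subunit, at -0.10, Slc6a9, the glial glycine transporter, at 0.11 and Gabrd at -0.14. Hcn4, a pacemaker channel, stood at 0.18 and Cacna1e, an R-type calcium channel, at -0.12. Immediate early genes, which report recent neuronal activity, had a median of -0.01 over 16 genes, and Egr2 was too variable to place, at 2.63 to 12.03 CPM in sham and 2.08 to 13.1 CPM in SNI libraries.

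Motor neuron genes leaned toward SNI. All 14 tested were above 0, the median was 0.37 and 0 were called. The median was 0.21 without SNI replicates 3 and 6, 0.20 without sham replicate 2, and 0.199 to 0.521 when single libraries were left out. Isl1, a homeobox factor of motor and sensory neurons, had a log2 fold change of 0.39 (SE 0.164; limma, unadjusted p = 0.0299, adjusted p = 0.999998), and the other 13 genes of the list had larger p. Slc18a3, the vesicular acetylcholine transporter, measured 6.73, 18.8, 21.8, 34.8, 36.6 and 48.1 CPM in sham and 21.02, 28.4, 30.6, 32.9, 65.9 and 67.5 CPM in SNI libraries. The 2 highest values belonged to SNI replicates 3 and 6 and the lowest to sham replicate 2, and the other libraries overlapped. Prph, peripherin, followed the same order at its extremes, with 119 and 98.0 CPM in SNI replicates 3 and 6 and 11.6 CPM in sham replicate 2. On the operated side the list's median had the opposite sign, -0.63, again with 0 called.

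In SNI replicates 3 and 6, where motor neuron genes were highest, dorsal horn genes were low. The excitatory dorsal horn list had a median of -0.02 over 18 genes and 5 above 0, and of 0.09 without those replicates. Nmu, the peptide neuromedin U of superficial excitatory neurons, measured 4.18 and 5.74 CPM in SNI replicates 6 and 3, against 6.67 to 9.25 CPM in sham. The inhibitory dorsal horn list had a median of -0.01 over 15 genes. The share of ventral horn in each sample, and its part in these values, was not tested. With the motor neuron level added to the model, the contralateral comparison again called 0 genes, and 256 had an unadjusted p under 0.05.

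Glial, vascular and housekeeping genes gave little. Gfap, the astrocyte filament, measured 779 to 1279 CPM in sham and 755 to 1149 CPM in SNI libraries, a log2 fold change of 0.00247 (interval -0.23 to 0.23). Serpina3n, a protease inhibitor of reactive astrocytes, measured 39.4 to 49.8 CPM in sham and 42.2 to 51.9 CPM in SNI libraries, a log2 fold change of 0.15 (SE 0.0641; limma, unadjusted p = 0.0302, adjusted p = 0.999998). Astrocyte identity genes had a median of 0.03 over 14 genes, myelin genes 0.00285 over 15 and sterol synthesis genes 0.04 over 18. Ependymal genes, of the cells lining the central canal, had a median of -0.17 over 10 genes with 1 above 0, and without SNI replicate 6, in which their mean lay at -1.28, the median was -0.09. Mitochondrially encoded genes had a median of -0.11 with 0 of 13 above 0, and of -0.24 without SNI replicates 3 and 6 and -0.07 without replicate 1.

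Over all 41 lists together, 568 different genes were tested, 0 were called, and 9 had an unadjusted p under 0.05 in the higher and 1 in the lower direction. That is 1.76% of them, beside 1.91% of all genes. The median lay within 0.1 of 0 for 32 of the 41 lists.

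The sexes were compared within the contralateral side, since the study was set up to compare male and female animals. Female libraries (3 SNI, 3 sham) gave 0 called genes and 418 with an unadjusted p under 0.05, and male libraries gave 0 and 710. The difference between the sexes, tested as an interaction, gave 0 called genes (0%) and 727 with an unadjusted p under 0.05 by limma trend, and 0 and 773 by voom. Titles 49 to 56 hold 2 of the 3 male SNI libraries and 0 male sham libraries, so surgery and title set overlap in males, whereas each female group has 1 library there. With a term for titles 49 to 56, an alternative chosen after seeing the data, the interaction again called 0 genes, and 814 had an unadjusted p under 0.05. The 6 genes with the smallest interaction p are described next. That p chose them, so their values give no further support for a difference between the sexes.

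Tmem173, the cytosolic DNA-sensing adaptor STING, measured 2.08, 2.17 and 2.22 CPM in male sham and 3.23, 3.60 and 4.21 CPM in male SNI libraries. In females it measured 2.77, 2.98 and 2.995 CPM in sham and 2.30, 2.36 and 2.60 CPM in SNI libraries. The groups thus separated in both sexes but in opposite directions, which is what the choice of the gene favours. The share of all genes that separate in this way is not given here. The male minus female difference was 1.01 (SE 0.2; limma, adjusted p = 0.999578). It rose on the operated side, by 0.97 (limma, adjusted p = 2.8e-05). Slc15a2, a peptide transporter of astrocytes, measured 47.5 to 50.8 CPM in male sham and 31.5 to 34.8 CPM in male SNI libraries, with a difference between sexes of -0.69. Female sham libraries, at 27.3 to 39.8 CPM, were lower than male sham libraries.

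Pdyn, the dynorphin precursor, F2rl2, a thrombin-family receptor, and Gbx1, a homeobox gene, are dorsal horn neuron genes whose differences were 0.71, 0.88 and 0.89. In each of the 3 the lowest values were those of the female SNI replicates 3 and 6, such as 16.97 and 17.2 CPM for Pdyn against 23.03 CPM in the remaining female SNI library. Gimap3, a lymphocyte GTPase, had a difference of 2.56 from 55 reads over all SNI and 42 over all sham libraries. Without SNI replicate 2, that remaining female, the interaction called 30 genes, 28 of them with the higher effect in males. These 30 include Pdyn and Gbx1 and the dorsal horn peptides Sst, Tac1 and Tac2, and the female SNI group then consists of the 2 libraries with high motor neuron genes. Without SNI replicate 1, and without replicates 1 and 5, the interaction called 1 gene, Xist. Both leave male SNI libraries from titles 49 to 56 alone (a single library without replicates 1 and 5, assumed to vary like the other groups) against male sham libraries from titles 33 to 48, so surgery and title set cannot be told apart there. Xist differed by title set among male mouse libraries of both sides, at 2.28 to 3.63 CPM in titles 49 to 56 and 0.269 to 0.756 CPM in titles 33 to 48.

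Among the 263 genes that rose on the operated side, the contralateral median was -0.05 in females and 0.18 in males. Without SNI replicate 5 the male median was 0.09, and without SNI replicate 6 the female median was -0.01. With a term for titles 49 to 56 the male median was 0.17, and the male SNI library of titles 33 to 48 lay at 0.03 where those of titles 49 to 56 lay at 0.14 and 0.39. Of the 18 described genes with the smallest operated-side p, 13 were below 0 in females and 18 above 0 in males. The interaction test called none of the 18. They were read in the same libraries, so their signs are not independent of each other. Of the 41 gene lists, 22 likewise had a median below 0 in females and above 0 in males. The matching shares over all genes are not given here.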

How the data were processed

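The 12 contralateral mouse libraries were analysed from the deposited tables of whole-number read counts per Ensembl gene, which are the authors' own values. STAR and the builds GRCm38 and mm10 are named in the submitters' processing notes, and the counting program, its strand setting and all versions were not stated in the labels or files. The deposited tables have no header and hold, beside genes, other unnormalised totals of reads (no feature, not unique, ambiguous). These were left out of library totals and tests, and 71.4 to 76.1% of the entries in the contralateral libraries were on genes. Because the files' format did not allow them to be recorded as a count column, the fallback of the planned design was used and no count model was run.

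Libraries were scaled by trimmed mean of M values (30% of ratios and 5% of levels trimmed), genes with at least 10 counts at the median depth in at least 3 libraries and 15 in all were kept, and log2 CPM with a prior count of 2 was fitted with limma 3.58.1 (R 4.3.3) with trend and robust moderation, sex as a covariate, two-sided. Group means by sex, and by side and sex over 24 libraries, gave the interactions. The scripts were tested on simulated data. Symbols were matched for 40254 of 41388 gene identifiers, and positions are from GENCODE on GRCm38. Depth was 28642947 to 39516266 counts on genes per library.

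Genes named are the 12 with the smallest p in each direction, the 20 called on the operated side with the smallest p (18 described), the extremes of each gene list, a fixed set of injury and microglia genes and the 6 with the smallest p in each interaction. The comparison, the gene lists and these rules were chosen with earlier results of these data known, while the labels alone decide which libraries belong to it. Where a gene falls outside the rule it was named after its values were seen: A330033J07Rik, Gpr107, Cblb, Eps8l1, Isl1, Ccl7, Slc6a4, Sst, Tac1 and Tac2. Alternatives changed the scaling, filter, prior count, weights, model terms and libraries. Figures were drawn with matplotlib 3.10.9. The single values of some genes that these rules pick are not reported here, and these genes stay in all fits and counts. The rat libraries were not used here.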

Additional observations from a re-analysis of the deposited data

Results flagged for a closer look

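Single libraries far from the others of their group, by a test of the gap between an extreme value and its neighbour, were found in 18 of 198 groups of 6 libraries. The cutoff is set to mark about 1 in 20 groups of independent, normally distributed values. These groups share libraries and many of the genes were picked by their values here, so 18 cannot be measured against that rate. SNI replicate 5 was the highest of its group for Il4ra (10.5 CPM), C1qc (30.4 CPM), the cell cycle list (1.09 log2 units above the sham mean) and the neutrophil list (4.12). SNI replicate 1 was the highest for Irf7 (9.27 CPM), SNI replicate 3 for Bcas1os1 (0.976 CPM) and Sprr1a (0.325 CPM), SNI replicate 4 for Mid1 (8.68 CPM) and SNI replicate 6 for the nuclear oxidative phosphorylation list (0.207). Among sham libraries, replicate 2 was the highest for Mid1 (12.7 CPM) and Gm47283 (22.1 CPM), replicate 1 for Gm26716 (1.99 CPM), Gm17075 (1.01 CPM) and the cytosolic ribosome list (0.15), replicate 4 for Cyth4 (11.8 CPM) and Gfap (1279 CPM), replicate 6 for Wfdc3 (1.15 CPM) and replicate 3 for Cst7 (0.127 CPM, 4 reads).

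The contralateral minus ipsilateral log2 fold change passed the test of the difference itself (limma, adjusted p under 0.05) for 33 of the named genes, always with the lower effect on the contralateral side. Over all 18058 genes tested, the contralateral effect was lower for 113 (0.626%). Many of the named genes were picked by their operated-side values, and some by this test itself. The same libraries enter the test, so the count and direction among named genes give no independent support. In complement and phagocytic genes the differences were -1.15 for C1qa, -1.15 for C1qb, -1.23 for C1qc, -1.33 for Itgam, -1.08 for Trem2, -1.003 for Mpeg1, -1.31 for Ctss and -0.98 for Fcer1g. In genes of microglial identity and receptors they were -1.07 for Tmem119, -0.99 for Siglech, -1.24 for Aif1, -0.95 for Cx3cr1, -0.92 for Csf1r, -1.13 for Fcrls, -1.15 for Olfml3, -1.66 for Lag3, -0.81 for Selplg, -1.47 for Ly86 and -0.85 for Irf8. Signalling and other genes gave -0.86 for Cyth4, -1.04 for Abi3, -1.16 for Fgd2, -1.30 for Rasal3, -1.19 for Pld4, -1.03 for Capn3, -0.73 for Tmem173 and -0.81 for Csf3r, the receptor for granulocyte colony-stimulating factor. In injury genes they were -4.11 for Atf3, -6.68 for Sprr1a, -2.15 for Gpr151 and -1.42 for Gal, and in chemokines -2.44 for Ccl2 and -3.55 for Ccl7. For Atf3 and Sprr1a, the reads of operated-side SNI replicate 2 lay within the operated-side sham range.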

How the results depend on the processing

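The contralateral comparison called 0 genes under each of 26 alternatives, and Alox15 had the smallest p in 23 of the 27 settings, the reported one included. The smallest adjusted p was 0.3, for Alox15 with a term for titles 49 to 56. The surgery by side test called 87 to 138 genes, and the surgery by sex test called 0 to 30 when single libraries were left out (30 without SNI replicate 2, 1 without SNI replicate 1) and 1 without SNI replicates 1 and 5 together; for these calls the cause was not tested. Genes at an unadjusted p under 0.05 numbered 194 (with a term for titles 49 to 56) to 800 across settings, with 800 of 27968 tested when no filter was used, 207 of 14414 under the stricter filter, 692 without SNI replicate 2 and 761 without sham replicate 6. None of 56 named genes was called under any setting, and 22 changed sign under at least 1. These 56 are the genes with the smallest p in each direction, the described operated-side genes and the tested genes of the fixed injury and microglia set. List extremes and interaction genes outside these sets were not in the count of sign changes. With a term for titles 49 to 56, the log2 fold change was C1qa -0.005001, Lag3 -0.00601, Gfap -0.0168, Cx3cr1 -0.0367 and Tmem119 -0.00533. In titles 33 to 48 alone, the log2 fold change was C1qc -0.0701, Itgam -0.0791, C1qa -0.0521, Lag3 -0.12, Fcrls -0.0138, C1qb -0.00233, Ctss -0.0793, Timp1 0.0899, Gfap -0.14, Csf1r -0.0234, Atf3 0.19 and Cx3cr1 -0.0991. With the motor neuron level added, the log2 fold change was Lag3 -0.0346, Fgd2 0.0548, Timp1 0.0278, Gfap -0.0265, Gal 0.0302, Atf3 0.038 and Cx3cr1 -0.0342. With the blood level added, the log2 fold change was Ctss -0.00177 and Gfap -0.0122. Without scaling beyond the total, the log2 fold change was Gfap -0.00591. With voom weights, the log2 fold change was Gfap -0.000528. Without SNI replicates 1 and 5 together, an alternative chosen after seeing the data, the log2 fold change was C1qc -0.00611, C1qb -0.01003, Ctss -0.0339, Capn3 -0.00327, Cyth4 -0.04997, Gfap -0.00698, Irf7 -0.12, Isg15 -0.10, Cx3cr1 -0.00516 and Tmem119 -0.032. Without SNI replicates 3 and 6 together, also chosen after seeing the data, 638 genes had an unadjusted p under 0.05, and the log2 fold change was Lag3 -0.0682, Ctss -0.00172, Fgd2 0.0711, Timp1 0.22, Gfap -0.0286, Gal 0.0547, Atf3 0.089, Npy 0.0978 and Cx3cr1 -0.0121. With single libraries left out, it ranged over -0.0663 to 0.0916 for Atf3, -0.029 to 0.0843 for C1qa, -0.00412 to 0.0637 for C1qb, -0.0184 to 0.0818 for C1qc, -0.025 to 0.0536 for Ctss, -0.0266 to 0.0834 for Cx3cr1, -0.0882 to 0.026 for Fgd2, -0.053 to 0.0832 for Gfap, -0.0246 to 0.35 for Isg15, -3.95e-05 to 0.15 for Itgam, -0.0384 to 0.0697 for Lag3, -0.14 to 0.00134 for Pld4, -0.0691 to 0.0181 for Rasal3, -0.17 to 0.23 for Timp1 and -0.0402 to 0.0564 for Tmem119.

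No paired analysis was possible because the labels do not tie libraries to animals, and replicate numbers here follow accession order only. Each ipsilateral title is followed by a contralateral title of the same sex and surgery, but order was not used to pair libraries, and the surgery by side test treats them as independent. At this depth a gene such as Cst7, with 0 to 4 reads per library, could not be tested. The unadjusted 95% interval of a typical gene reached 0.16 log2 units either way, and a call over all genes needs a larger difference than that. Whether a library holds 1 animal or several is not given, and the 3 late SNI libraries are matched by 1 late sham library.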

Other observations

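The remaining gene lists also held 0 called genes on the contralateral side. Medians were 0.01 for 15 interferon receptor and sensor genes, 0.08 for 18 reactive astrocyte genes, 0.05 for 14 pan-neuronal genes, 0.02 for 9 genes of oligodendrocyte precursors and 0.03 for 18 circadian clock genes. They were 0.00339 for 16 glucocorticoid-responsive genes, -0.00178 for 12 heat shock genes, 0.01 for 17 nuclear oxidative phosphorylation genes and -0.03 for 15 cytosolic ribosome genes. Among markers of other tissue they were 0.03 for 13 border macrophage and monocyte genes, 0.02 for 14 endothelial and pericyte genes, 0.05 for 12 meningeal fibroblast genes, -0.09 for 12 Schwann cell genes, 0.11 for 9 dorsal root ganglion genes and -0.15 for the 2 tested T and NK cell genes. Several of these medians changed sign with 1 library: without SNI replicate 5 the border macrophage and monocyte list stood at -0.14 and without SNI replicate 6 at 0.19, without SNI replicates 2 and 6 singly the meningeal fibroblast list stood at -0.11 and 0.17, and without SNI replicate 6 the Schwann cell list stood at 0.14. When single libraries were left out, these 3 medians ranged over -0.137 to 0.19, -0.114 to 0.195 and -0.296 to 0.144. The reactive astrocyte median ranged over 0.0198 to 0.135 and the endothelial and pericyte median over -0.0466 to 0.0543. The cell cycle list had a median of 0.12 over 17 genes and -0.05 without SNI replicate 5, and the 6 sex-linked genes had a median of -0.08.

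Lcn2, the siderophore-binding lipocalin of acute inflammation, measured 11.02 CPM in sham replicate 2, 17.4 and 22.97 CPM in SNI replicates 4 and 5, and 0.842 to 3.39 CPM in the other 9 contralateral libraries. Mobp, a myelin protein, measured 5615 CPM in sham replicate 1 and 2494 to 3542 CPM in the other 11. Xist, the RNA that coats the inactive X, measured 0.269 to 0.756 CPM in the 8 male mouse libraries with titles 33 to 48 and 2.28 to 3.63 CPM in the 4 with titles 49 to 56, against 536 to 948 CPM in females. Kdm5d, on the Y chromosome, measured 39.6 to 47.3 CPM in male and at most 0.0689 CPM in female mouse libraries.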
